A study of Mus musculus with 6 samples.

Results

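Transcript levels of 10 heat-shock chaperone genes were compared, gene by gene, between mouse thyroid tumor cells that expressed nuclear mutant YAP (YAP) and cells that also carried mutant Braf (BrafYAP). The genes were selected by symbol out of 35027 genes in the table: Hspa1a, Hspa1b, Dnajb1, Hsph1, Bag3, Hsp90aa1 and Hspb1, taken as the 7 inducible members, and Hspa8, Hsp90ab1 and Hspe1, taken as the 3 constitutive members. All 10 were listed and all 10 had a mean of at least 1 TPM over the libraries, the level from which a gene was tested. The classes follow textbook knowledge of the genes.

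RNA-seq was performed on 6 libraries of sorted cells, 3 per group. YAP mice carried RIK-rtTA and tetO-YAPS127A with a Cre expressed in thyroid cells, and doxycycline (dox) switched on a constitutively nuclear YAP in these cells. BrafYAP mice carried in addition LSL-Braf, which expresses BrafV600E from the endogenous gene after Cre. Both groups received dox chow from 4 weeks of age, so both expressed YAPS127A and neither was a wild-type thyroid. About 20000 Kate-positive cells were sorted per library after collagenase digestion at 37 C for 1 h. A YAP library combined 3 tumors, whereas a BrafYAP library came from 1 tumor, so pooling and genotype cannot be told apart. These details and the start of dox follow the labels. The study's Methods give the same start of dox, whereas its Results give a later one. Its Methods also differ from the labels in naming a single tumor per replicate. Replicate numbers follow the labels (1, 2 and 3 for YAP, and 1, 2 and 6 for BrafYAP), and nothing states which mouse or litter gave which tumor.

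Chaperones bind unfolded proteins and help them reach or recover their native state. When unfolded protein accumulates, the heat-shock factor HSF1 binds heat-shock elements, which are inverted repeats of the unit GAA, upstream of the inducible genes. Hspa1a and Hspa1b encode the stress-inducible cytosolic HSP70, and Hspa8 encodes its constitutive form, HSC70. Dnajb1 encodes an HSP40 that delivers substrates to HSP70, while the HSP110 protein encoded by Hsph1 and the co-chaperone Bag3 release nucleotide from HSP70 and so end its cycle. Hsp90aa1 and Hsp90ab1 encode the inducible and the constitutive cytosolic HSP90, which matures kinases and receptors, RAF kinases among them. Hspb1 encodes a small heat-shock protein that holds unfolded proteins without ATP, and Hspe1 encodes the mitochondrial HSP10 that caps the HSP60 chamber. Enzymatic dissociation of tissue is also known to induce heat-shock and immediate-early genes in many cell types.

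The promoters were examined for exact pairs of the inverted units that HSF1 recognises. The 250 bases before each RefSeq start site were searched for GAANNTTC and TTCNNGAA, the 2 ways in which a pair of inverted units can follow each other, on both strands. Of all 32851 promoters in the RefSeq table (GRCm38.p6), 12.8% held at least 1 such pair and 0.466% held 3 or more alternating units. Promoters of 7 members were in the table, and 5 of these 7 held a pair: Hspa1a, Hspa1b, Hsph1, Hspb1 and Hspe1. The windows of Dnajb1 and Bag3 held none, and Hspa8, Hsp90aa1 and Hsp90ab1 were not in the table.

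The 150 bases before the start sites of Hspa1a, Hspa1b and Hspb1 are shown because these were the 3 members whose groups did not overlap in the upward direction. They are written 5′ to 3′ on the strand of the gene, with the pairs of inverted units in capitals, and they lie at chr17:34972157-34972306 (minus strand), chr17:34959239-34959388 (minus strand) and chr5:135887769-135887918 (plus strand).
Hspa1a: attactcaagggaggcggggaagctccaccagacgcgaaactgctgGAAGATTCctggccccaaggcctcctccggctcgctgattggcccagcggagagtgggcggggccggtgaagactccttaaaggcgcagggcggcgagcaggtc
Hspa1b: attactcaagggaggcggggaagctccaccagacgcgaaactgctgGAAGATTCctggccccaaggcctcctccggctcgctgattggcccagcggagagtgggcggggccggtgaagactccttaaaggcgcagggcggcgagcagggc
Hspb1: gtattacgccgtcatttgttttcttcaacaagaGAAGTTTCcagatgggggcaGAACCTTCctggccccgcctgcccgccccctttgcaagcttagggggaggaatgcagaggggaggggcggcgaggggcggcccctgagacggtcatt

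The pair began at position -104 from the start site in both Hspa1a and Hspa1b, whose 250-base windows were identical at 247 bases. The 3 changes from Hspa1a to Hspa1b, counted from 1 at the 5′ end of the window, were C44T, T47C and T249G. Hspb1 held a pair at -117 and another at -97. Short stretches of 30 bases are shown for Hspe1 (chr1:55088053-55088082, plus strand) and Hsph1 (chr5:149636351-149636380, minus strand), because their windows also held the letters.
Hspe1: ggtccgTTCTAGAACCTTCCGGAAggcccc
Hsph1: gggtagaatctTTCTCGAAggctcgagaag

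Hspe1, a constitutive member here, held the longest run, with overlapping pairs at -89, -84 and -79. It shares this region head to head with Hspd1, which encodes HSP60. A match of letters is a description and does not show binding. A window without an exact pair does not show that sites are absent, since inexact pairs and bases further away were not searched.

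The libraries held 26.1 to 36.9 M estimated reads on genes. BrafYAP replicates 1 and 2 were the most alike pair, with r = 0.979 across the 7319 genes tested (log2 of TPM + 1; genes are not independent replicates), and BrafYAP replicate 6 stood apart from the others at 0.733 to 0.879. YAP replicate 2 correlated better with BrafYAP replicates 1 and 2 (0.939 and 0.925) than with YAP replicate 1 (0.874). Thyroid differentiation markers were low, with Tg between 0.00965 and 3.62 TPM, whereas the thyroid transcription factor Pax8 was between 3.13 and 8.84 TPM in the 6 libraries. Epithelial marker sums overlapped between the groups, at 967 to 2707 TPM in YAP and 1043 to 2514 TPM in BrafYAP. Of these 6 markers, Epcam alone did not overlap. It was at 1.18, 0.833 and 2.69 TPM in YAP and at 4.02, 3.42 and 15.4 TPM in BrafYAP.

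Across the 10 members, the inducible HSP70 genes and Hspb1 were higher in every BrafYAP than in every YAP library. Hspa8 and Hspe1 were lower in deposited TPM, Hspe1 by a margin that was lost in exonic TPM. No member passed the threshold. With limma on log2(TPM + 1), 0 of 10 members had a Benjamini-Hochberg adjusted p under 0.05, where 18 of 7319 genes tested (0.246%) did. At an unadjusted p under 0.05 there were 3 members, Hspa1a, Hspa1b and Hspb1, beside 19.9% of all genes tested. The groups did not overlap for 3 members that were higher in BrafYAP, where 11.8% of genes did so, and for 2 that were lower, where 16.4% did so. Limma on voom-transformed estimated reads also called 0 members, with 4 at an unadjusted p under 0.05. The plot of levels gives every library.

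**Figure D1:**
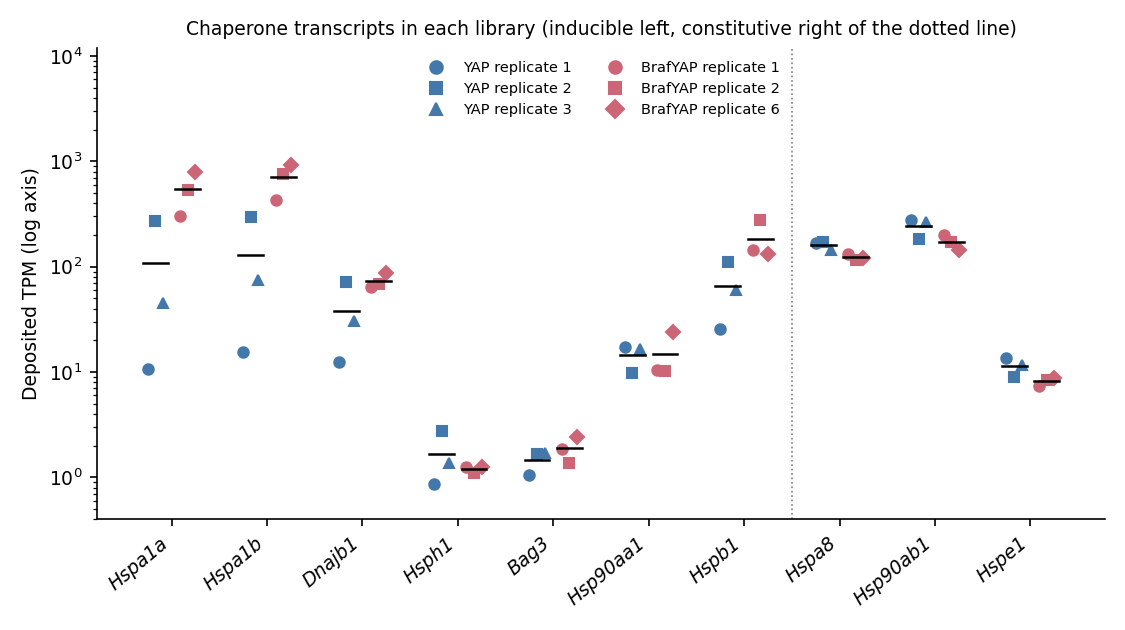
Deposited TPM on a log axis for each chaperone gene in the 3 YAP and 3 BrafYAP libraries, with a horizontal line at each group mean. The 3 BrafYAP libraries sit above all 3 YAP libraries for Hspa1a, Hspa1b and Hspb1, and YAP replicate 2 is the highest YAP library for these genes, Dnajb1 and Hsph1. Levels are comparable between libraries within a gene and not between genes, since the deposited values were divided by the genomic span.

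Hspa1a (chr17:34969190-34972156, minus strand, mm10) is a gene of 1 exon. It was at 10.6, 270.4 and 45.3 TPM in YAP replicates 1, 2 and 3 and at 306, 537 and 791 TPM in BrafYAP replicates 1, 2 and 6. YAP replicate 1 was by far the lowest, and YAP replicate 2 lay just under the lowest BrafYAP library. The means were 109 ± 141 (SD, n = 3) in YAP and 545 ± 242 TPM (SD, n = 3) in BrafYAP, and the log2 fold change was 3.27 (SE 1.06; 95% interval 0.77 to 5.77; limma adjusted p = 0.157). The YAP libraries spanned 25.5-fold and the BrafYAP libraries 2.58-fold.

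Hspa1b (chr17:34956436-34959238, minus strand), its neighbour of 1 exon, followed the same order of libraries. It was at 15.5, 299 and 75.3 TPM in YAP and at 431, 763 and 923 TPM in BrafYAP. On the log2 scale the fold change was 3.22 (SE 0.97; 95% interval 0.92 to 5.51; limma adjusted p = 0.142). The 2 transcripts were 99.2% identical over 2201 bases, so their split of reads is uncertain, and with their TPM taken as 1 sum the log2 fold change was 3.26 (SE 1.02; limma adjusted p = 0.149).

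By estimated reads divided by exonic length (exonic TPM), which allows genes to be ranked within a library, Hspa1b was 3011th, 190th and 834th in YAP and 105th, 45th and 44th in BrafYAP. Hspa1a was 3859th, 215th and 1360th in YAP and 169th, 76th and 53rd in BrafYAP. In BrafYAP replicates 2 and 6 both inducible HSP70 genes were thus among the most abundant transcripts of the library.

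The calls on the inducible HSP70 genes depended on which libraries were kept and how these were weighted. Without YAP replicate 2 the log2 fold change was 4.45 for Hspa1a and 4.24 for Hspa1b, both with a limma adjusted p of 0.0361. In that setting 2 of 10 members were called, beside 6.39% of genes. The groups then did not overlap for 4 members that were higher, where 22.4% of genes did so. They did not overlap for 3 that were lower, where 27.2% did so. Without YAP replicate 1, the lowest library, Hspa1a was at 2.18 (limma adjusted p = 0.324) and Hspa1b at 2.15 (limma adjusted p = 0.274). With libraries weighted by their quality (limma array weights) 3 members were called, Hspa1a, Hspa1b and Hspb1, with log2 fold changes of 3.03, 2.89 and 1.70 and adjusted p of 0.0161, 0.0140 and 0.0231, beside 19.0% of genes. These weights gave least to BrafYAP replicate 6 (0.299), YAP replicate 1 (0.351) and YAP replicate 2 (0.567).

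Dnajb1 (chr8:83608193-83612653, plus strand), the HSP40 partner of HSP70, was at 12.6, 71.6 and 30.3 TPM in YAP and at 64.5, 68.9 and 87.0 TPM in BrafYAP. YAP replicate 2 lay within the BrafYAP range, and the other YAP libraries lay below it. The difference was 1.24 on the log2 scale (SE 0.58; limma adjusted p = 0.287), and it was 0.63 without YAP replicate 1 and 1.84 without YAP replicate 2 (limma adjusted p = 0.558 and 0.0579). The order of the 3 YAP libraries was that of the inducible HSP70 genes.

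Hsph1 (chr5:149614287-149636376, minus strand) encodes the inducible HSP110. It was at 0.870, 2.75 and 1.38 TPM in YAP and at 1.26, 1.10 and 1.26 TPM in BrafYAP, which put every BrafYAP library inside the YAP range. The log2 fold change was -0.21 (SE 0.27; limma adjusted p = 0.683), and 0.06 without YAP replicate 2. Its reads numbered 563 to 1498 per library, the fewest of any inducible member in one library.

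Bag3 (chr7:128523616-128546981, plus strand), which links HSP70 to small heat-shock proteins and to autophagy, was at 1.06, 1.65 and 1.71 TPM in YAP and at 1.88, 1.38 and 2.42 TPM in BrafYAP. The ranges overlapped through BrafYAP replicate 2. Its log2 fold change was 0.22 (SE 0.22; limma adjusted p = 0.603), with a 95% interval of -0.30 to 0.74.

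Hspb1 (chr5:135887919-135889563, plus strand) was at 25.4, 111 and 59.8 TPM in YAP and at 145, 275 and 133 TPM in BrafYAP. Here BrafYAP replicate 2 was highest and replicate 6 lowest of its group, unlike Hspa1a. The log2 fold change was 1.63 (SE 0.57; 95% interval 0.30 to 2.97; limma adjusted p = 0.177). It was 1.09 without YAP replicate 1, 2.13 without YAP replicate 2, and 0.86 after the GC correction described further on, chosen after seeing the data (limma adjusted p = 0.361, 0.0626 and 0.234). The processed pseudogene Hsp25-ps1 was 99.8% identical over 441 bases, and the near-identical copies of Hspb1 held 29.5 to 57.0% of their joint reads in the 6 libraries. With the copies summed it was 2.0 (SE 0.68; limma adjusted p = 0.174).

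Hsp90aa1 (chr12:110690605-110702728, minus strand), the inducible HSP90, was at 17.3, 9.83 and 16.5 TPM in YAP and at 10.4, 10.1 and 24.1 TPM in BrafYAP. BrafYAP replicate 6 was the highest of the 6 libraries, while the other BrafYAP libraries lay at the low end of the YAP range. The log2 fold change was -0.04 (SE 0.40; 95% interval -0.99 to 0.91; limma adjusted p = 0.964), and its sign turned with several settings. Near-identical copies, mainly Gm12346 and Gm5844, held 32 to 36.8% of the joint reads.

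The constitutive members lay in a narrower band. Hspa8 (chr9:40800984-40810087, plus strand), which encodes HSC70, was at 166, 171 and 144 TPM in YAP and at 133, 115 and 121 TPM in BrafYAP. All 3 BrafYAP libraries were below all 3 YAP libraries, by little: the log2 fold change was -0.38 (SE 0.24; 95% interval -0.94 to 0.18; limma adjusted p = 0.413). Copies of Hspa8, chiefly the processed pseudogene Gm15459 (99.7% identical over 1941 bases), held 60.6 to 61.2% of the joint reads in every library, so the level is understated while the ratio between libraries moved little, to -0.38 with the copies summed.

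Hsp90ab1 (chr17:45567775-45573271, minus strand), the constitutive HSP90, was at 279, 184 and 269 TPM in YAP and at 202, 172 and 145 TPM in BrafYAP. YAP replicate 2 lay within the BrafYAP range. Its log2 fold change was -0.48 (SE 0.29; limma adjusted p = 0.390).

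Hspe1 (chr1:55088132-55091307, plus strand), the mitochondrial HSP10, was at 13.6, 8.98 and 11.5 TPM in YAP and at 7.31, 8.46 and 8.83 TPM in BrafYAP. The groups did not overlap in deposited TPM, though YAP replicate 2 lay just above BrafYAP replicate 6. In exonic TPM they overlapped, with YAP replicate 2 at 48.5 and BrafYAP replicates 2 and 6 at 50.1 and 50.8. The groups of Hspe1 also overlapped after the GC correction described further on, and with its near-identical copy summed. Its log2 fold change was -0.42 (SE 0.24; limma adjusted p = 0.383). Its partner Hspd1, which encodes HSP60 and overlaps it head to head, was at 7.70, 6.55 and 8.55 TPM in YAP and at 5.93, 4.92 and 6.14 TPM in BrafYAP (log2 fold change -0.37, SE 0.22; limma adjusted p = 0.393). A near-identical gene, AC117239.2, held 39.9 to 46.6% of the joint reads of Hspe1.

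**Figure D2:**
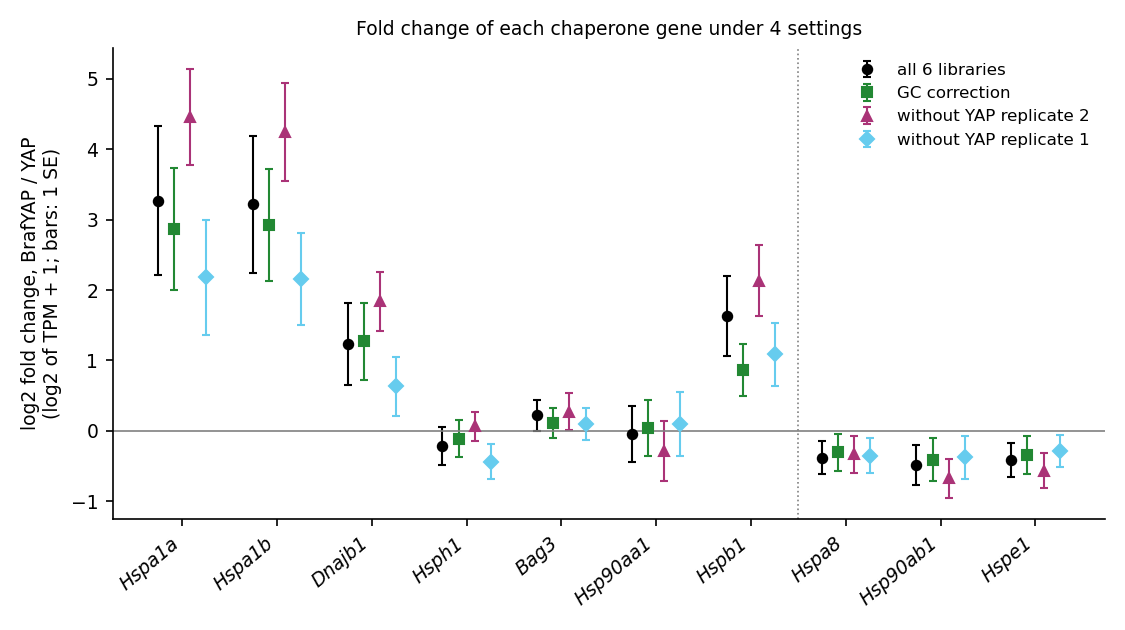
Log2 fold change of each gene (BrafYAP over YAP, on log2 of TPM + 1) with 1 SE, for all 6 libraries, after a correction for GC content, and without YAP replicate 2 or YAP replicate 1. The inducible HSP70 genes range from 2.15 to 4.45 over these settings, and the 3 constitutive genes, right of the dotted line, are below 0 in each.

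The 2 classes were set side by side, by log2 fold changes of the deposited TPM (log2 of TPM + 1) and by sums of exonic TPM. The median log2 fold change was 1.24 for the 7 inducible members, with a range of -0.21 to 3.27, and -0.42 for the 3 constitutive members, with a range of -0.48 to -0.38, beside -0.06 over all genes tested. The summed exonic TPM of the inducible members was 388, 2257 and 899 in YAP and 2985, 5177 and 5733 in BrafYAP. That of the constitutive members was 2312, 1802 and 2247 in YAP and 1794, 1586 and 1445 in BrafYAP. The inducible sums did not overlap between the groups, but varied widely within YAP, from 388 to 2257, against 2985 in BrafYAP replicate 1. The constitutive sums of YAP replicate 2 and BrafYAP replicate 1 nearly met. Reads in near-identical copies, which are most numerous for Hspa8, are not part of these sums, so which sum is larger within a library is not read from them.

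In YAP the order of exonic TPM began with the constitutive Hsp90ab1 (1173 ± 283, SD, n = 3) and Hspa8 (883 ± 44.4), whose libraries overlapped. The next 5, Hspa1b (332 ± 371), Hspa1a (276 ± 351), Hspb1 (271 ± 171), Dnajb1 (137 ± 104) and Hsp90aa1 (118 ± 36.2), each overlapped the next in the order. Hspe1 (64.2 ± 14.2) met Hsp90aa1 at its upper end, and Bag3 (35.1 ± 9.0) and Hsph1 (13.1 ± 7.21) each lay apart below. In BrafYAP the order began with Hspa1b (1906 ± 675, SD, n = 3) and Hspa1a (1471 ± 645), followed by Hsp90ab1 (857 ± 141), Hspb1 (799 ± 355) and Hspa8 (703 ± 47.4), each of which overlapped its neighbour. Dnajb1 (276 ± 42.4) and Hsp90aa1 (124 ± 65.2) lay apart, Hspe1 (47.8 ± 4.72) and Bag3 (46.5 ± 12.2) overlapped, and Hsph1 (9.91 ± 0.60) was last. These levels are understated for genes that share reads with copies.

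Ratios within a library cancel a scale factor common to all its genes, but not a shift that differs with GC content. The ratio of Hspa1a + Hspa1b to Hspa8 was 0.0744, 1.57 and 0.396 in YAP and 2.61, 5.34 and 6.71 in BrafYAP (exonic TPM). The ratio was above 1 in every BrafYAP library and in YAP replicate 2, but the near-identical copies that held 60.6 to 61.2% of the joint Hspa8 reads are not part of it. The ratio of Dnajb1 to Hspa8 was 0.0498, 0.275 and 0.139 in YAP and 0.319, 0.394 and 0.474 in BrafYAP, and that of Hspb1 to Hspa8 was 0.115, 0.491 and 0.314 in YAP and 0.822, 1.80 and 0.829 in BrafYAP. For both the groups did not overlap. The GC content was 58.9% for Hspa1a, 58.1% for Hspa1b and 61.7% for Hspb1, against 51.2% for Hspa8. The library shifts with GC content given further on remain in these ratios, and their part was not tested. The ratio of Hsph1 to Hspa8 was 0.00752, 0.0231 and 0.0138 in YAP and 0.0136, 0.0138 and 0.0150 in BrafYAP, so the HSP110 to HSC70 balance of the groups overlapped.

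The balance of inducible to constitutive HSP90 was tested. The ratio of Hsp90aa1 to Hsp90ab1 was 0.104, 0.0899 and 0.104 in YAP and 0.0864, 0.0991 and 0.279 in BrafYAP. Only BrafYAP replicate 6 departed from a ratio near 0.1. Near-identical copies held 32 to 36.8% of the joint Hsp90aa1 reads, and Hsp90ab1 had no such copies, so the level of this ratio may be understated. On the log2 scale of the deposited TPM + 1 the difference, BrafYAP minus YAP, was 0.44. The groups were not told apart by an exact permutation test (two-sided, p = 0.9), for which the smallest p that 3 against 3 allows is 0.1. Without BrafYAP replicate 6 the difference was -0.07.

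**Figure D3:**
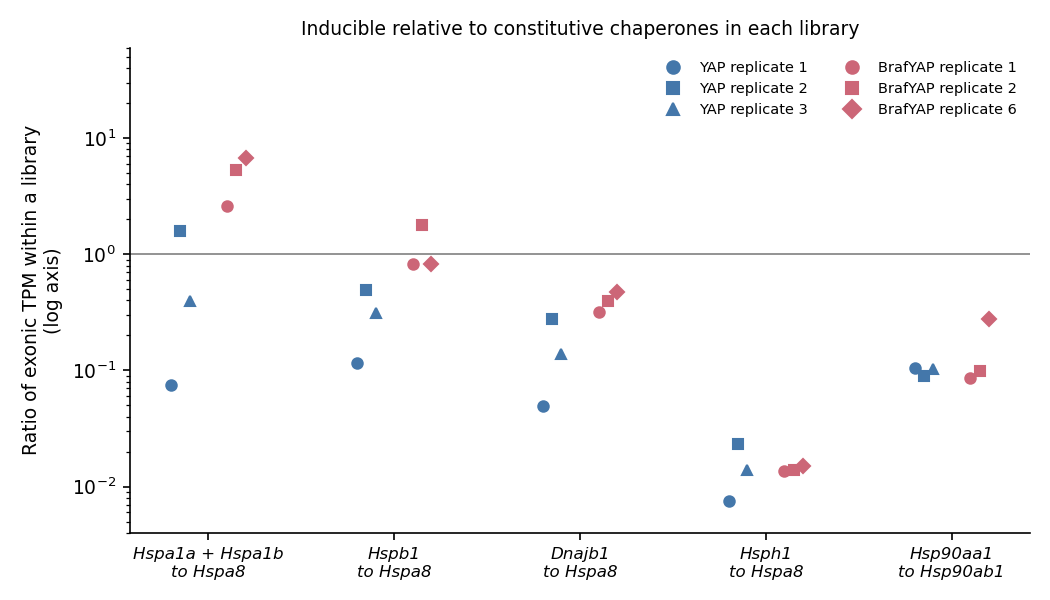
Ratio of exonic TPM within each library, on a log axis, for inducible over constitutive partners, with a line at a ratio of 1. The HSP70 ratio is 2.61 to 6.71 in BrafYAP and 0.0744 to 1.57 in YAP, whereas the HSP90 ratio is near 0.1 in every library but BrafYAP replicate 6 (0.279).

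GC content moved with the library differences. In YAP replicate 1 the median deviation of genes from their 6-library mean (log2 of TPM + 1) was 0.12 at 50 to 55% GC, -0.41 at 55 to 60% and -1.03 at 60 to 65%, whereas in the BrafYAP libraries it was 0.36 to 0.41 at 60 to 65%. The median log2 fold change of genes tested was -0.12 at 50 to 55% GC, where Dnajb1, Hspa8, Hsp90ab1 and Hspe1 lie, 0.09 at 55 to 60%, where Hspa1a, Hspa1b and Bag3 lie, and 0.79 at 60 to 65%, where Hspb1 lies. A correction for GC content, chosen after seeing the data, gave log2 fold changes of 2.87 for Hspa1a, 2.92 for Hspa1b and 1.27 for Dnajb1 (limma adjusted p = 0.121, 0.0950 and 0.237). For Hspb1 it gave 0.86 (SE 0.37; limma adjusted p = 0.234), against 1.63 without the correction, and 1.23 with the copies summed as well. With GC correction and without YAP replicate 2, the 2 inducible HSP70 genes were called (3.84 and 3.76, limma adjusted p = 0.0355 for both) beside 6.24% of genes. With GC correction and array weights, Hspa1a, Hspa1b and Dnajb1 were called (limma adjusted p = 0.0118, 0.0100 and 0.0432) beside 20.8% of genes.

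**Figure D4:**
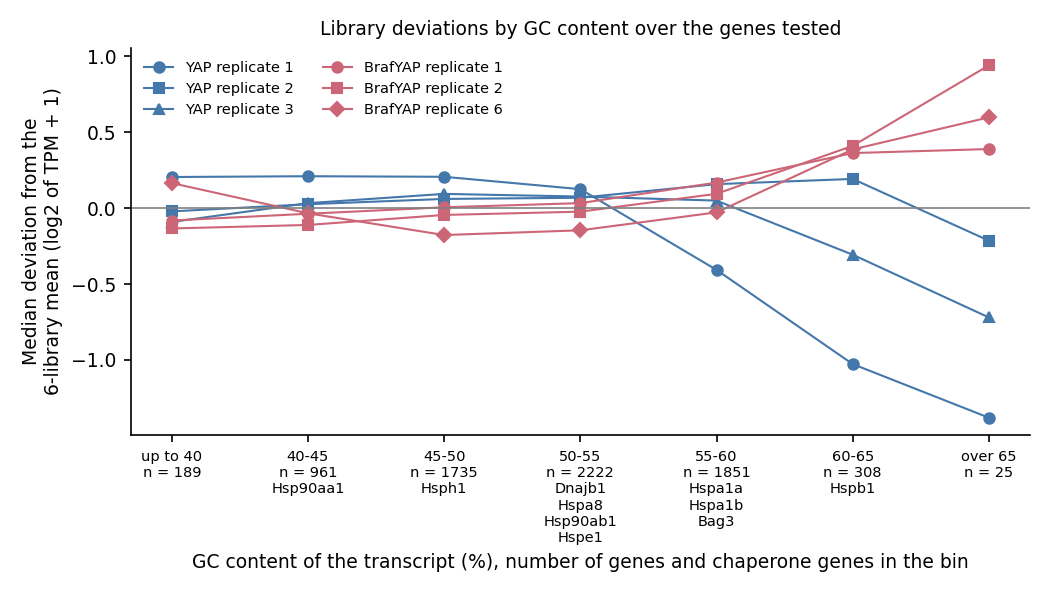
Median deviation of each library from the 6-library mean (log2 of TPM + 1) over genes tested, in bins of the GC content of the transcript, with the number of genes and the chaperone genes in each bin. YAP replicate 1 drops to -1.03 at 60 to 65% GC, the bin of Hspb1, where the BrafYAP libraries are at 0.36 to 0.41.

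Other genes of the chaperone network were taken from 9 lists of 88 genes, of which 69 were tested. None passed the threshold (0 of 69 by limma adjusted p, and 0 of 84 when estimated reads were tested, where 15 had an unadjusted p under 0.05 beside 20.2% of all genes). At an unadjusted p under 0.05, 7 were higher and 1 was lower in BrafYAP, and the median log2 fold change was 0.09. The groups did not overlap for 8 that were higher and 7 that were lower. Over all genes tested the shares were 19.9% at an unadjusted p under 0.05, 11.8% not overlapping and higher, and 16.4% not overlapping and lower, so the lists were at or below these shares.

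Among exchange factors and ubiquitin partners of HSP70, Stub1, which encodes the ligase CHIP, stood out. It was at 1.48, 39.7 and 13.2 TPM in YAP and at 67.6, 72.2 and 145 TPM in BrafYAP, the order of libraries seen in Hspa1a (log2 fold change 3.00, SE 0.95; limma adjusted p = 0.151; 2.34 after GC correction). St13, which encodes the HSP70-interacting protein HIP, was lowest of that list at -0.11. Of 9 DNAJ genes tested, 7 had a positive log2 fold change, from Dnaja2 at 0.99 (SE 0.32; limma adjusted p = 0.157) down to Dnajc8 at -0.29. Of the HSP70 relatives, Hspa2 was at 1.39 and Hspa14 at -0.33.

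Of 12 HSP90 co-chaperones tested, 8 had positive and 4 negative values. The immunophilin gene Fkbp4 was highest, at 2.67, 10.2 and 6.74 TPM in YAP and 13.7, 16.0 and 15.1 TPM in BrafYAP (log2 fold change 1.22, SE 0.41; limma adjusted p = 0.173). Stip1, which encodes the HOP adaptor between HSP70 and HSP90, was lowest at -0.70 (SE 0.32; limma adjusted p = 0.274), with no overlap of the groups. The heat-shock factor Hsf1 was at 0.398, 2.66 and 1.38 TPM in YAP and 2.25, 1.74 and 1.43 TPM in BrafYAP, so the groups overlapped (log2 fold change 0.28), and Hsbp1, which encodes a small HSF1-binding protein, was at -0.22.

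The small heat-shock proteins went both ways. Cryab, which encodes alpha-B-crystallin, was at 189, 105 and 194 TPM in YAP and at 74.9, 69.7 and 6.0 TPM in BrafYAP, opposite in direction to Hspb1 (log2 fold change -2.24, SE 0.91; limma adjusted p = 0.234). Its lowest library was BrafYAP replicate 6. Hspb6 was the highest of that list at 0.34. In mitochondria Hspa9, which encodes mortalin, was at 0.73 and Hspd1 at -0.37. In the cytosolic TRiC/CCT and prefoldin list 4 of 12 values were positive, from Cct4 at 0.36 to Cct5 at -0.55, and among 13 ER chaperones the range ran from Pdia3 at 1.67 to Pdia6 at -0.44.

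**Figure D5:**
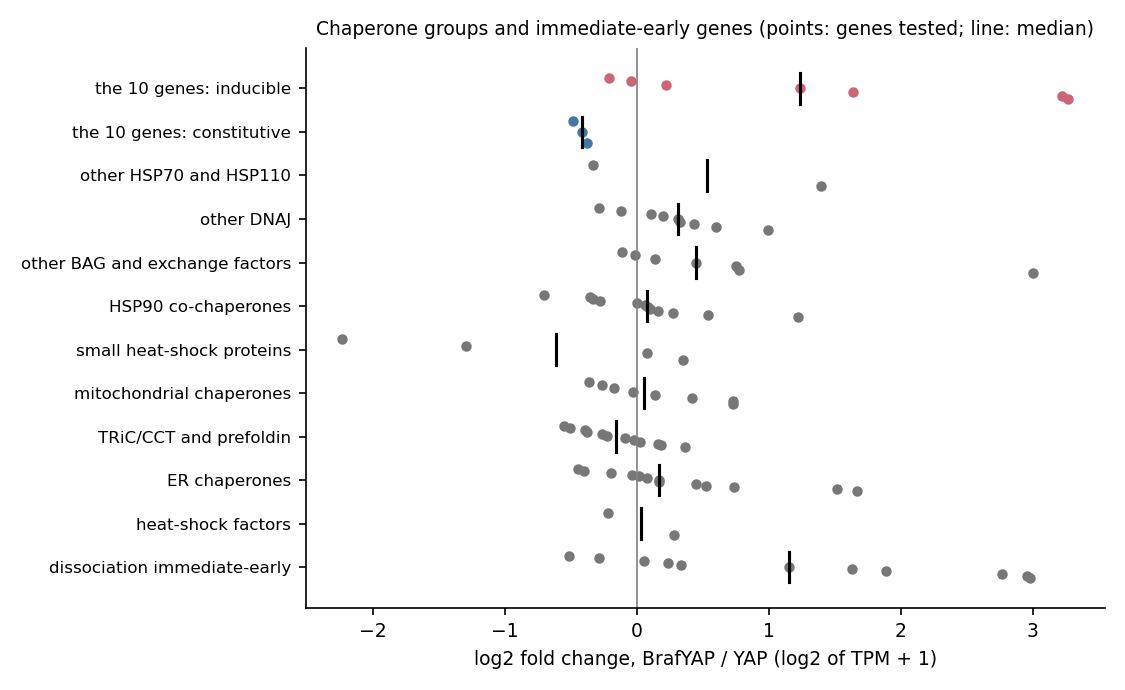
Log2 fold change (BrafYAP over YAP, on log2 of TPM + 1) of the genes tested in each list, 1 point per gene, with the list's median as a line. The inducible members have a median of 1.24 and the constitutive members -0.42, and the immediate-early genes a median of 1.15.

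The 5 genes outside the members whose pattern was most like that of Hspa1a over the 6 libraries, by root mean square difference of centred log2(TPM + 1), were Ier2 (0.27), Stub1 (0.39), Ccdc85b (0.39), Maf1 (0.44) and Junb (0.44), beside 0.19 for Hspa1b. The GC content of these 5 was 54.8 to 62.6%. Ier2, an immediate-early gene, was at 6.46, 174 and 36.3 TPM in YAP and at 225, 290 and 363 TPM in BrafYAP (log2 fold change 2.98, SE 1.03; limma adjusted p = 0.175). The resemblance lay in YAP replicate 1 being lowest and YAP replicate 2 being nearest to BrafYAP.

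Immediate-early genes moved with the inducible HSP70 genes in part. In 5 of 11 such genes (Jun, Junb, Egr1, Ier2 and Dusp1) all BrafYAP libraries were above all YAP libraries, with log2 fold changes of 2.77, 2.95, 1.63, 2.98 and 1.89, and 0 of 11 passed the threshold (limma adjusted p) while 5 had an unadjusted p under 0.05. Over all genes tested 11.8% did not overlap and were higher, and 19.9% had an unadjusted p under 0.05. The summed level of the list was 1762 to 2254 TPM in YAP and 2766 to 3743 TPM in BrafYAP. Fos, at 568, 658 and 382 TPM in YAP and 605, 731 and 650 TPM in BrafYAP, overlapped between the groups (log2 fold change 0.34), and Fosb was the lowest of the list at -0.52. The protocol in the labels was the same for both groups, and the part of tissue dissociation in the chaperone levels was not tested.

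Markers of other cells were measured in the same libraries. The summed level of 10 immune markers was 1195 to 4242 TPM in YAP and 347 to 1291 TPM in BrafYAP. Most of it came from the macrophage genes Lyz2 and Cd68, but sums of values divided by span weigh long genes less. The pan-leukocyte gene Ptprc was at 0.492 to 0.748 TPM in YAP and 0.120 to 0.257 TPM in BrafYAP. Its estimated reads numbered 2472, 1982 and 1622 in YAP and 553, 521 and 982 in BrafYAP. Only 4 immune markers reached 1 TPM and were tested: Cd68, Lyz2, Csf1r and Itgam. All 4 were negative, with a median log2 fold change of -1.60. Of these, 3 had an unadjusted p under 0.05 (limma), beside 19.9% of all genes tested, and 0 passed by adjusted p. Lyz2 was at 3960, 2863 and 1064 TPM in YAP and at 1179, 875 and 297 TPM in BrafYAP, highest in YAP replicate 1, where Hspa1a was lowest, and lowest in BrafYAP replicate 6, where Hspa1a was highest. The summed fibroblast and epithelial markers overlapped between the groups, though single genes did not. Of 4 fibroblast markers tested, Dcn was higher (log2 fold change 1.09) and Col1a1 lower (-1.22) in every BrafYAP library (limma adjusted p = 0.176 and 0.149). Summed endothelial markers were at most 2.39 TPM in any library, though Kdr among them had 2573 estimated reads in YAP replicate 2. In these bulk samples fewer cells of a type and less RNA per cell cannot be told apart, and the part of other cells in the chaperone levels was not tested.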

How the data were processed

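The authors aligned paired 50-nt reads to mm10 with STAR 2.6.1d, assigned them to Ensembl release 95 by Partek's E/M method, and deposited 1 table of TPM, each value raised by 0.0001. The deposited TPM columns each sum to 181217.6. Values under 200 reads, multiplied by genomic span (GENCODE M21), were within 0.05 of whole multiples of 1 step per library in 61.4 to 66.8% of cases, against 22.1 to 24.7% with exonic length. The deposited TPM were therefore taken as divided by span, and estimated reads and exonic TPM were calculated from it for 34640 genes at 1 locus. Whether counting used strand is not given in the sources used here, so reads of overlapping genes may be shared. PCR reads carry no molecular identifier, and intervals cover the spread between samples only, which may be technical.

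Samples were grouped by GEO's labels. Limma 3.58.1 (R 4.3.3; eBayes with trend, two-sided) was run on log2(TPM + 1) for the 7319 genes whose mean reached 1 TPM, with p-values adjusted over all of these (Benjamini-Hochberg, threshold 0.05). Fold changes on this scale are understated for low genes. The fit was tested on simulated data. Copies were sought with blastn 2.17.0 (95% identity over 200 bases). GC correction removed a loess trend (span 0.5) from each library. Exact permutation used scipy 1.17.1. Alternatives covered pseudocount, filter, normalization, length, reads, voom, array weights and leaving out each library. All 10 members were named, with the tested gene of the highest and of the lowest log2 fold change in each pathway list and the 5 tested genes nearest to Hspa1a in pattern. Other immediate-early genes and the cell markers were named after their values were seen. The members, lists and classes were chosen with earlier results of these data known. The driver of Cre is not reported here.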

Additional observations from a re-analysis of the deposited data

How the results depend on the processing

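The 18 genes past the threshold became 1 with a pseudocount of 0.1, 0 with 0.0001, 3 with a minimum mean of 10, 0 with no filter, 79 with quantile normalization, 1 with median-ratio rescaling, 1 without the trend, 1393 with array weights, 0 on estimated reads, 63 with exonic length, 0 with voom and 0 to 465 when 1 library was left out, the highest without YAP replicate 2. With the alternatives chosen after seeing the data, it was 53 with GC correction, 61 with copies summed as well, 452 with GC correction and without YAP replicate 2, and 1514 with GC correction and array weights. Members past the threshold numbered 0, except 3 with array weights, 3 with GC correction and array weights, 2 with GC correction and without YAP replicate 2, and 0 to 2 when 1 library was left out. The cause of these shifts was not tested.

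The replicate numbers 1 and 2 occur in both groups, but same-numbered libraries did not deviate together (correlations of -0.05 and 0.06). With the replicate block 0 genes and 0 members passed the threshold, and 987 genes had an unadjusted p under 0.05. The log2 fold change of Hspa1a was then 2.86.

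The sign of Hsp90aa1, -0.04, turned to 0.0473 with median-ratio rescaling, 0.00104 with exonic length, 0.0406 with GC correction and 0.0742 with copies summed as well, and it ranged from -0.430 to 0.158 when 1 library was left out. Hsph1 ranged from -0.439 to 0.0642 when 1 library was left out, positive without YAP replicate 2, and was 0.137 with GC correction as well, and Bag3 turned to -0.0658 with GC correction and array weights. The difference in the Hsp90aa1 to Hsp90ab1 ratio ranged from -0.0658 to 0.742 when 1 library was left out. Over all alternatives the log2 fold change was 2.18 to 4.45 for Hspa1a, 2.15 to 4.24 for Hspa1b, 0.63 to 1.84 for Dnajb1, 0.86 to 2.13 for Hspb1, -0.45 to -0.24 for Hspa8, -0.67 to -0.28 for Hsp90ab1 and -0.56 to -0.29 for Hspe1. Every member had at least 563 estimated reads per library.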

Other observations

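Long chaperone genes can fall under the minimum of 1 TPM because the deposited values were divided by span. Of the 88 listed genes, 15 were tested only on estimated reads. None of these passed the threshold (limma adjusted p), and at an unadjusted p under 0.05 there were 5 that were higher and 2 that were lower in BrafYAP, beside 20.2% of all genes tested on estimated reads. Examples chosen after their values were seen follow. Hspa4, an HSP110 relative of Hsph1, had 274, 383 and 446 estimated reads in YAP and 755, 1306 and 1105 in BrafYAP (log2 fold change 1.26, SE 0.32; limma adjusted p = 0.110), so its groups did not overlap while those of Hsph1 did. Dnaja4, an HSP40, had 259.7, 201 and 136 in YAP and 409.8, 672 and 659.6 in BrafYAP (1.31, SE 0.35; limma adjusted p = 0.123). Fkbp5, an HSP90 immunophilin, had 129, 164 and 186 in YAP and 47.0, 84.0 and 58.0 in BrafYAP (-1.60, SE 0.37; limma adjusted p = 0.103), opposite in direction to its relative Fkbp4. Hspb7, a small heat-shock protein of muscle, had 175, 81.0 and 108 in YAP and 22.0, 16.0 and 0 in BrafYAP. The summed level of 6 skeletal muscle markers was 0.662 to 3.56 TPM in YAP and 0.112 to 0.575 TPM in BrafYAP.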
